A study of Mus musculus with 2 samples.

Results

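The S100 proteins examined here are 8 mouse genes taken by symbol from the feature table of the deposited matrices, S100a1, S100a4, S100a6, S100a8, S100a9, S100a10, S100a11 and S100a13. That list of 31053 genes holds 17 of the S100 family, of which these are 8. Their raw unique molecular identifier (UMI) counts were followed through 2 single-cell libraries of mouse pancreas cells collected after pancreatitis. Both libraries came from mice of genotype R26[CA]30EYFP on the C57Bl/6J strain. One held the cells sorted as EYFP positive and the other the cells sorted as EYFP negative, with 1 library for each. In this reporter the EYFP sequence sits in the Rosa26 locus behind a CA repeat and is read once the length of the repeat has changed. The reporter is in all cells of both libraries, and the groups differ in whether its EYFP was seen at the sort. No EYFP transcript is listed among the features, and the counts therefore give no check of the sort. The labels give the treatment as none while the design text speaks of induced pancreatitis, and the sources used here state neither an animal number, nor an age, nor the days since pancreatitis.

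S100 proteins are small calcium-binding proteins with a pair of EF-hand motifs that mostly work as dimers. In most of them calcium opens a surface that binds target proteins such as annexins and myosin. Some S100 proteins are released and act as damage signals on receptors such as Tlr4 and Ager. In inflamed tissue S100a8 and S100a9, which together form calprotectin, are known as products of neutrophils and monocytes. S100a4, also called fibroblast-specific protein, binds non-muscle myosin and is known from motile fibroblasts, macrophages and memory T cells, and S100a6 (calcyclin) from mesenchymal and dividing cells. S100a10 (p11) holds annexin A2 at the plasma membrane, S100a11 binds annexin A1, S100a13 takes part in the release of Fgf1 and Il1a, and S100a1 is best known for acting on calcium handling in muscle.

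All 8 genes lie on mouse chromosome 3 (GRCm38, GENCODE M21) in 2 groups. S100a1 (ENSMUSG00000044080, chr3:90511034-90514392, minus strand) and S100a13 (ENSMUSG00000042312, chr3:90514435-90524581, plus strand) run apart from each other with 42 bases between them. S100a4 (ENSMUSG00000001020, chr3:90603771-90606045) and S100a6 (ENSMUSG00000001025, chr3:90612882-90624181) follow on the plus strand with 6836 bases between them. S100a8 (ENSMUSG00000056054, chr3:90668978-90670035, plus strand) and S100a9 (ENSMUSG00000056071, chr3:90692632-90695721, minus strand) close this group. S100a11 (ENSMUSG00000027907, chr3:93520488-93526287) and S100a10 (ENSMUSG00000041959, chr3:93555080-93564643) lie 2824766 bases further on, both on the plus strand and 28792 bases apart. S100a13 has 4 annotated exons and each of the other members has 3. The longest run of identical coding sequence between any pair of members was 19 bases, between S100a6 and S100a9, followed by 13 bases between S100a4 and S100a6. S100a4 shares 302 of its exonic bases (51.7%) with the annotated gene Gm42674 on the same strand, which held 0 UMIs in both libraries.

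The upstream sequences of S100a4, S100a6 and S100a11, on whose distribution over cell types most of the results turn, are shown with the short gap that separates the starts of S100a1 and S100a13. They are RefSeq sequences of GRCm38.p6 on the plus strand, 5′ to 3′, limited to bases outside annotated exons, and capitals mark the motifs that were found. Their positions are chr3:90603520-90603769 for S100a4, chr3:90612644-90612881 for S100a6, chr3:93520246-93520487 for S100a11 and chr3:90514393-90514434 for the gap.
S100a4: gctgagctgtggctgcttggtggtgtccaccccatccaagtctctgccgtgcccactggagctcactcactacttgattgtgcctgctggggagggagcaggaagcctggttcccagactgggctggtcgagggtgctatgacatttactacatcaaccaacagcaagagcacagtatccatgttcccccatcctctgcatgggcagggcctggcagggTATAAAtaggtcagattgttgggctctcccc
S100a6: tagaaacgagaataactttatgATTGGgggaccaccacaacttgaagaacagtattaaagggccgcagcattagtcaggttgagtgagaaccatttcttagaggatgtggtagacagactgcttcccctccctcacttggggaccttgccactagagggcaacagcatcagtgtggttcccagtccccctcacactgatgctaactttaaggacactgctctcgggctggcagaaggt
S100a11: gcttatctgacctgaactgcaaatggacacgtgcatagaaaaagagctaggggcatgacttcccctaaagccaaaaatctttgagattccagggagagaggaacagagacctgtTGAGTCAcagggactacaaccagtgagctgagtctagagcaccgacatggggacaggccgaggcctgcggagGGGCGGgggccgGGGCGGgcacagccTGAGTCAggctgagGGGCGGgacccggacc
S100a1/S100a13 gap: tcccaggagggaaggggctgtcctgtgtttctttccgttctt

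The TATA box motif TATAAA, the motif CCAAT of the CCAAT box, the GC box motif GGGCGG and the AP-1 motif TGANTCA, which is its own reverse complement, were searched on both strands in the 250 bases before the RefSeq start of each gene. Of 32851 promoters of the same length, 12.4% held TATAAA, 33.8% held CCAAT, 32.7% held GGGCGG and 6.75% held TGANTCA. Of the 8 members 7 had a promoter entry, and S100a10 had none. S100a4 and S100a8 each held 1 TATAAA, 31 and 30 bases before the start. S100a11 held GGGCGG 3 times and TGANTCA at 136 and 38 bases before its start. S100a6 held 1 CCAAT on the minus strand, which reads ATTGG on the plus strand, at 228 bases, and S100a9 held 1 GGGCGG at 223 bases. None of the 4 motifs was found before S100a1 or S100a13. These matches describe the letters of the windows and do not show that a factor binds there.

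Barcodes under 200 detected genes or over 20% mitochondrial UMIs were removed. Of 1717 barcodes in the EYFP positive library 860 remained, and of 745 in the EYFP negative library 553, called cells from here on. EYFP positive cells were far shallower, with a median of 1007.5 UMIs against 8020 UMIs in EYFP negative cells, and the kept cells held 2745342 and 4857210 UMIs in all. The libraries shared 4 barcode sequences, 2 of them among kept cells. Clusters were named from marker genes, and the ending -like marks that no other evidence stands behind a name. T-like cells numbered 229 EYFP positive and 388 EYFP negative, and B-like cells 117 and 112. Ductal-like cells numbered 135 EYFP positive and 2 EYFP negative, acinar-like cells 84 and 1, fibroblast-like cells 63 and 5, macrophage-like cells 53 and 13, and endothelial-like cells 51 and 11. NK-like (15) and erythroid-like (6) cells were named in the EYFP negative library alone. Of the EYFP positive cells 128 stayed unnamed, among which a cluster of 45 cells had NK genes (Nkg7, Ncr1) and epithelial genes (Krt8, Krt18) among its leading genes. With classes set cell by cell from marker UMIs, 18 EYFP positive cells were NK-like and 24 erythroid-like. That setting also moved other EYFP positive classes, to 116 T-like, 95 B-like, 362 acinar-like, 119 ductal-like, 47 fibroblast-like, 44 endothelial-like and 22 macrophage-like cells. EYFP negative T-like cells then numbered 380, B-like cells 110 and macrophage-like cells 8. Only T-like and B-like cells reached 20 cells in both libraries, and within both classes different clusters held most cells of the 2 libraries. Levels are given as counts per 1000000 UMIs of the summed class (CPM) with an exact Poisson 95% interval, which covers counting error only, and with 1 library per group no difference carries a test. The gene levels in each class are set out in the map of S100 levels.

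**Figure D1:**
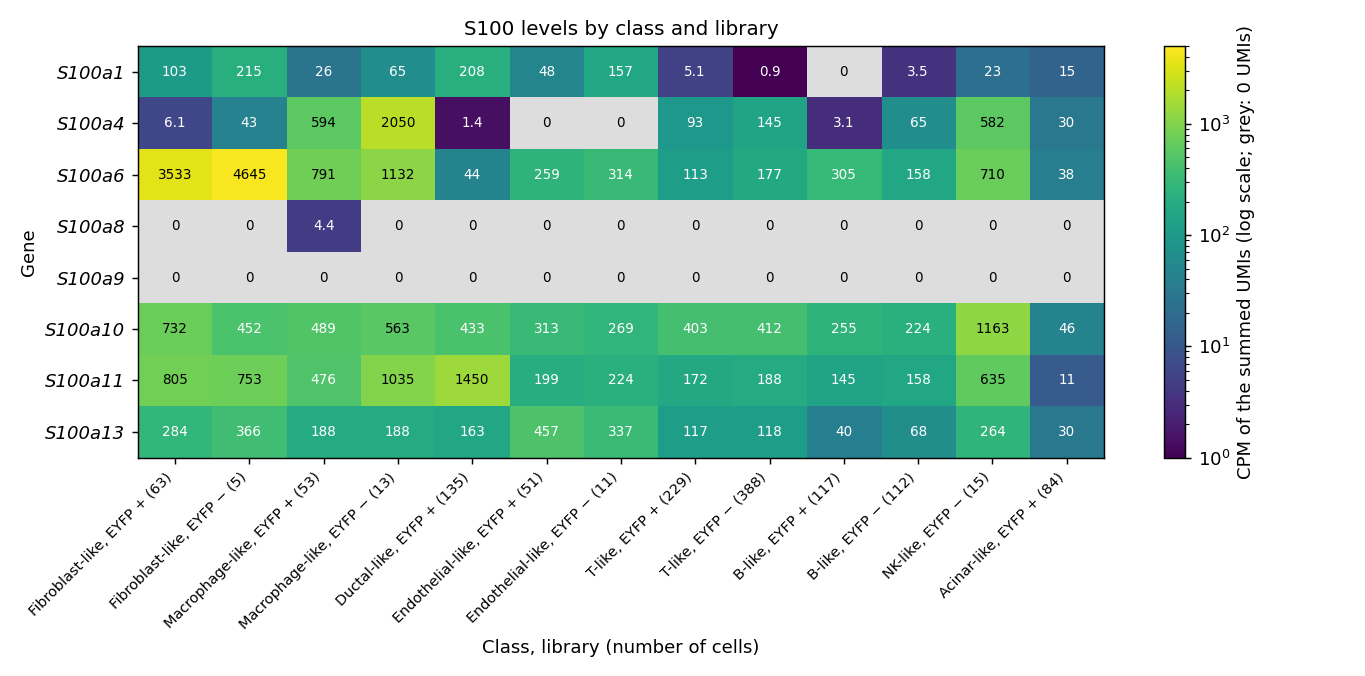
Level of each S100 gene (rows) in each class of each library (columns, number of cells in parentheses), as CPM of the summed UMIs on a log colour scale, with grey for 0 UMIs. S100a6 reached 3533 CPM in EYFP positive and 4645 CPM in EYFP negative fibroblast-like cells, S100a4 was highest in macrophage-like cells, S100a11 in EYFP positive ductal-like cells, and the S100a8 and S100a9 rows were grey apart from 1 UMI.

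S100a8 and S100a9, the calprotectin pair, were hardly detected. S100a8 had 1 UMI among the 4006807 UMIs of all 1717 EYFP positive barcodes and 0 among the 5295816 UMIs of all 745 EYFP negative barcodes. That single UMI lay in a macrophage-like cell of 971 UMIs. S100a9 had 0 UMIs in both libraries, and a count of 0 allows up to 0.749 CPM in the EYFP positive and 0.566 CPM in the EYFP negative barcodes (3 UMIs of the total). The list of 12 neutrophil markers was nearly empty as well. Its summed level was 40.1 CPM in EYFP positive and 8.03 CPM in EYFP negative cells (110 and 39 UMIs), 6 of its genes (Retnlg, Ly6g, Mmp8, Ngp, Camp and Stfa2l1) were at 0 in both libraries, and Lcn2, which epithelial cells also make, held 85 of the 110 EYFP positive UMIs and 14 of the 39 EYFP negative ones.

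S100a4 was a gene of macrophage-like cells and of few T-like cells, and hardly any was found in fibroblast-like cells. Macrophage-like cells had 594 CPM (499 to 703, 136 UMIs) in the EYFP positive and 2050.2 CPM (1830.7 to 2289, 317 UMIs) in the EYFP negative library. With classes set cell by cell the EYFP negative level was 1108 CPM. In the EYFP positive library 17 of 53 macrophage-like cells had at least 1 S100a4 UMI, with a median of 0 and a highest cell of 66 UMIs. The 13 EYFP negative macrophage-like cells held 152, 58, 36, 30, 13, 11, 10, 4 and 3 UMIs, and 4 of them held 0. The ranges of the libraries overlapped, and the EYFP negative cells were deeper, with medians of 1005 UMIs in EYFP positive and 9877 UMIs in EYFP negative macrophage-like cells. After each cell was thinned to 500 UMIs, 15.1% of EYFP positive and 30.8% of EYFP negative macrophage-like cells kept an S100a4 UMI. For comparison, endothelial-like cells had 0 of 51 and 0 of 11 cells with a UMI, at medians of 1380 and 3918 UMIs. This class was not fixed beforehand as a blank, and EYFP positive acinar-like cells held 8 S100a4 UMIs.

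The macrophage-like cells of the libraries also differed in their other genes. EYFP positive macrophage-like cells fell into a cluster shared with the EYFP negative cells, where S100a4 stood at 667 CPM (132 UMIs, 13 of 27 cells), and a cluster of 26 EYFP positive cells with hemoglobin genes among its leading genes, where it stood at 129 CPM (4 UMIs). Within the shared cluster the complement gene C1qa had 2582 CPM in EYFP positive (12 of 27 cells) and 1274 CPM in EYFP negative cells (4 of 13). The mannose receptor gene Mrc1 had 637 CPM (11 of 27 cells) and 155 CPM (4 of 13). Lyz2 was seen in 14 of 27 and 8 of 13 cells, and Cd74 in 25 of 27 and 13 of 13. In both libraries most cells of the shared cluster thus had no UMI of C1qa, and its S100a4 levels are not those of C1qa-holding cells alone. Cd74, H2-Aa and H2-Eb1 came first among the leading genes of that cluster, before Lyz2 and C1qa. Other myeloid cell types were not separated within it. The genes of monocytes gave no single direction. Ccr2 had 677 CPM in EYFP positive (7 of 27 cells) and 362 CPM in EYFP negative cells (4 of 13). Ly6c2 went the other way, with 0 UMIs in EYFP positive cells and 13 UMIs, in 2 cells, in EYFP negative cells. So did Plac8, with 96.0 CPM (19 UMIs in 1 cell) in EYFP positive and 770 CPM (119 UMIs in 5 cells) in EYFP negative cells. The part of these differences in the S100a4 level was not tested.

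In T-like cells S100a4 stood at 92.6 CPM (72.5 to 117) in the EYFP positive and 145 CPM (133 to 159) in the EYFP negative library, and nearly all of it came from few cells. In the EYFP positive library the 72 UMIs lay in 8 of the 74 cells of 1 cluster (119 CPM), and the other cluster held 0 UMIs in 155 cells. In the EYFP negative library 488 of 498 UMIs lay in a cluster of 63 cells with Izumo1r, Ikzf2, Maf and Cd28 among its leading genes, at 998 CPM (911 to 1091) and in 26 of the 63 cells. The largest EYFP negative cluster, led by Lef1, Bcl11b and Trac, had 0 S100a4 UMIs in 184 cells and 1461021 UMIs, although its cells were as deep (medians 7770 and 7306 UMIs). A cluster of 136 cells led by Cd8b1 and Dapl1 had 10 UMIs in 3 cells. The S100 genes were left out of the genes used for clustering, so these levels did not shape the clusters. All 63 cells of that cluster were EYFP negative, so cluster and library cannot be told apart there.

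The cluster that carried S100a4 also carried S100a6, S100a10 and S100a11. In it S100a6 stood at 1137 CPM (31 of 63 cells), against 4.79 CPM in the Lef1-led cluster and 29.4 CPM in the Cd8b1-led cluster, all EYFP negative. S100a10 stood at 1029 CPM in the Izumo1r and Ikzf2 cluster, 287 CPM in the Lef1-led and 333 CPM in the Cd8b1-led cluster, and S100a11 at 753, 68.4 and 119 CPM. S100a13 differed less, with 231, 106 and 93.1 CPM. Genes of regulatory and of experienced T cells, which were chosen after their values were seen, were also higher in the Izumo1r and Ikzf2 cluster than in the Lef1-led one. Foxp3, the regulatory T cell factor, had 92.0 against 6.84 CPM, Ctla4 178 against 8.90 CPM and the adhesion receptor Cd44 169.7 against 16.4 CPM. The lymph node homing receptor Ccr7 was lower, at 57.3 against 258 CPM. These values set a cluster beside other clusters of 1 library and describe that library alone.

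**Figure D2:**
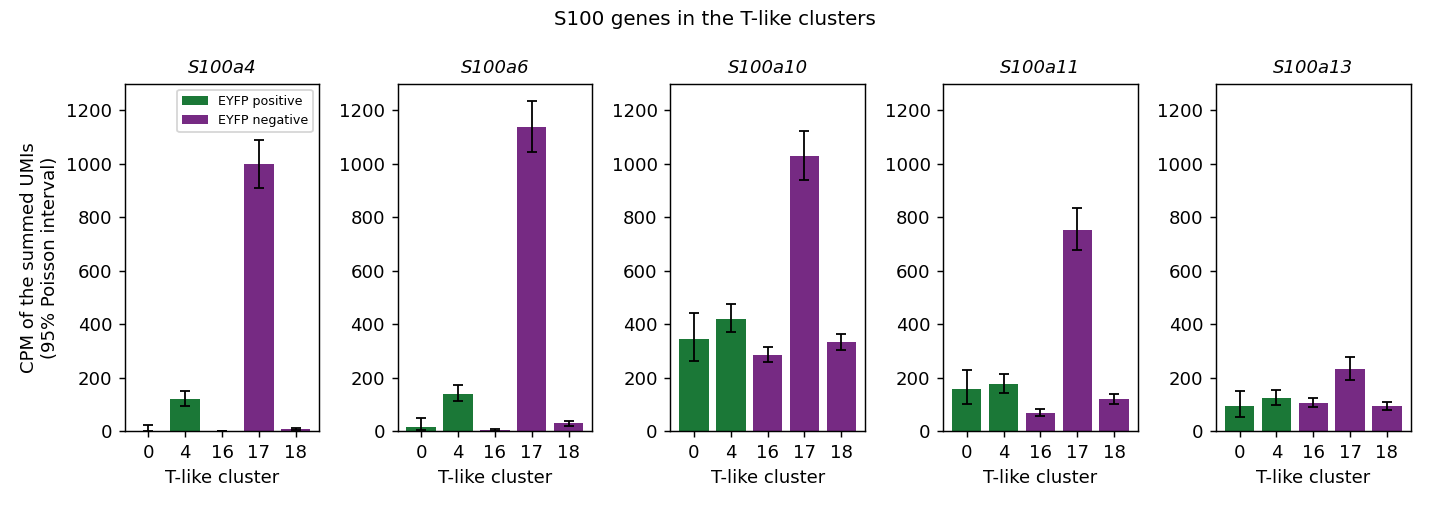
CPM of 5 S100 genes (panels) in the T-like clusters with most cells, EYFP positive clusters 0 and 4 on the left and EYFP negative clusters 16 (Lef1-led), 17 (Izumo1r and Ikzf2) and 18 (Cd8b1-led) on the right, with bars for the summed level and lines for the exact Poisson 95% interval. Cluster 17 stands above every other cluster for each of the 5 genes, at 998 CPM for S100a4, and its S100a13 bar (231 CPM) has the least lead.

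At the level of single T-like cells the genes overlapped in part. In the EYFP positive cluster of 74 cells, 5 of the 8 cells with S100a4 also had S100a6, against 0 of the 66 cells without S100a4, and all 8 had S100a11, against 32 of 66. None of those 8 cells had a Ccr7 UMI, while 42 of the 66 others did. In the Izumo1r and Ikzf2 cluster of the EYFP negative library, 21 of 26 cells with S100a4 had S100a6, against 10 of 37 without it, and 20 of 26 had Cd44, against 19 of 37. Ccr7 was on both sides there, in 7 of 26 cells with S100a4 and 9 of 37 without it. Depth was similar on both sides of these splits, with medians of 8098.5 and 7713 UMIs in the EYFP positive cluster and 8154 and 6990 UMIs in the EYFP negative one. Foxp3 did not follow S100a4 in this cluster, where 5 of 26 cells with S100a4 and 9 of 37 without it had a Foxp3 UMI.

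Outside these classes S100a4 was found in NK-like cells and was sparse elsewhere. The 15 NK-like cells, all EYFP negative, had 582 CPM (459 to 727), of which 66 UMIs lay in 1 cell, 8, 2 and 1 in the next cells, and 0 in 11 cells. B-like cells had 1 UMI in 117 EYFP positive cells and 56 UMIs in 5 of 112 EYFP negative cells. Fibroblast-like cells had 1 UMI in 63 EYFP positive cells (6.05 CPM, 0.153 to 33.7) and 2 UMIs in 5 EYFP negative cells (43.0 CPM, 5.21 to 155). With classes set cell by cell the EYFP positive level was 36.1 CPM. Ductal-like cells had 1 UMI in 135 EYFP positive cells and 0 in 2 EYFP negative cells, and EYFP positive acinar-like cells had 8 UMIs in 7 of 84 cells.

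S100a6, the neighbour of S100a4, was in contrast highest in fibroblast-like cells. Fibroblast-like cells had 3533 CPM (3253 to 3832, 584 UMIs) in the EYFP positive and 4645 CPM (4046 to 5307, 216 UMIs) in the EYFP negative library. The 63 EYFP positive cells ranged from 0 to 91 UMIs with a median of 3 UMIs, and the 5 EYFP negative cells had 86, 42, 31, 29 and 28 UMIs. The cells overlapped between libraries in raw UMIs, and the median cell stood at 2932 CPM in EYFP positive and 3750.0 CPM in EYFP negative fibroblast-like cells. At least 1 UMI was seen in 60 of 63 EYFP positive cells (95.2%, exact Clopper-Pearson 95% interval 86.7 to 99.0) and in all 5 EYFP negative cells, and in 82.5% of the EYFP positive cells after thinning to 500 UMIs. For comparison, 1 of 117 EYFP positive B-like cells (0.855%) had a UMI, at a median of 1340 UMIs. These cells were deeper than the EYFP positive fibroblast-like cells at 714 UMIs. That 1 cell held 99 S100a6 UMIs, so the share is not a background of false detection.

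These few fibroblast-like cells held a large part of the gene's transcripts. In the EYFP positive library they made 6.02% of all UMIs and 56.2% of S100a6 UMIs, and in the EYFP negative library 0.957% of all UMIs and 17.4% of S100a6 UMIs. T-like cells, in contrast, held 8.46% of S100a6 UMIs in the EYFP positive and 48.9% in the EYFP negative library. Macrophage-like cells held 17.4% and 14.1%, at 791 CPM (680 to 915) in EYFP positive and 1132 CPM (970.3 to 1312) in EYFP negative cells. The macrophage-like cluster with hemoglobin genes among its leading genes had S100a6 at 906 CPM (28 UMIs). This was close to the 773 CPM of EYFP positive cells in the shared cluster, whereas its S100a4 was lower at 129 CPM.

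The other classes had less S100a6. Endothelial-like cells had 259 CPM in the EYFP positive and 314 CPM in the EYFP negative library, and NK-like cells had 710.1 CPM. Ductal-like cells had 44.5 CPM, with 31 UMIs in 4 of 135 EYFP positive cells and 0 UMIs in the 2 EYFP negative cells, and EYFP positive acinar-like cells had 38.0 CPM. In B-like cells the level was 305 CPM in the EYFP positive and 158 CPM in the EYFP negative library, but all 99 EYFP positive UMIs lay in 1 of 117 cells. That cell had 16325 UMIs and carried 8 of the 10 B cell markers, among them 34 UMIs of Ms4a1, 25 of Cd79a and 17 of Cd79b, with no UMI of the T cell, NK or fibroblast markers. The 136 EYFP negative UMIs lay in 7 of 112 B-like cells, the highest with 65.

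**Figure D3:**
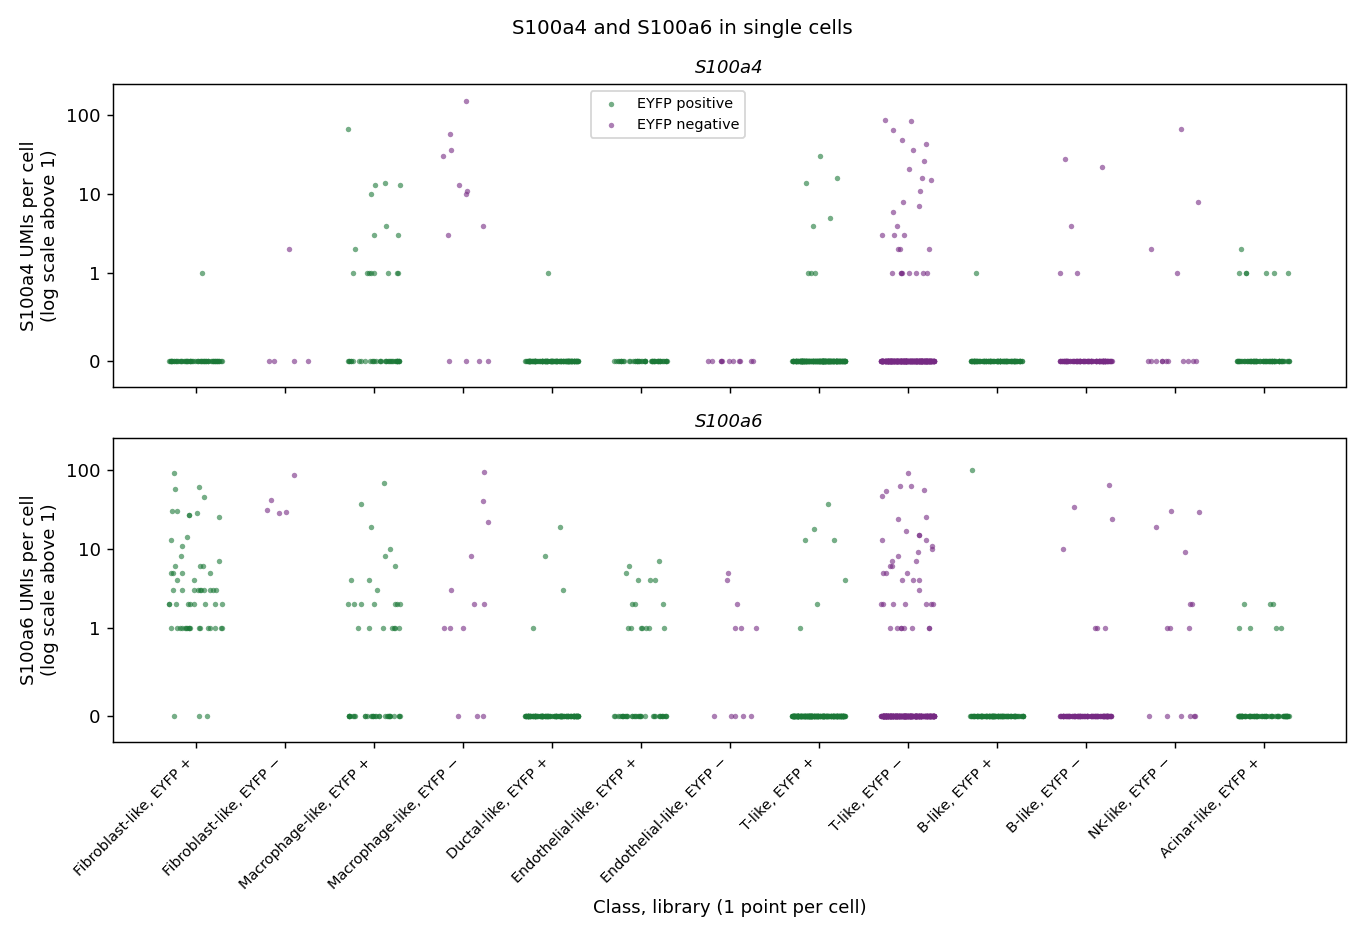
UMIs of S100a4 (top) and S100a6 (bottom) in each cell, by class and library, on an axis that is logarithmic above 1 UMI, with 1 point per cell, green for EYFP positive and purple for EYFP negative. Nearly all EYFP positive fibroblast-like cells lie above 0 for S100a6 (60 of 63) and at 0 for S100a4 (1 of 63 above), and the single EYFP positive B-like cell with 99 S100a6 UMIs stands alone.

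S100a10, the annexin A2 partner, was the most evenly spread member. EYFP positive fibroblast-like cells had 732 CPM (607 to 875), macrophage-like cells 489 CPM, ductal-like cells 433 CPM, T-like cells 403 CPM, endothelial-like cells 313 CPM and B-like cells 255 CPM. In the EYFP negative library fibroblast-like cells had 452 CPM (280 to 690), macrophage-like cells 563 CPM, T-like cells 412 CPM, endothelial-like cells 269 CPM and B-like cells 224 CPM. Fibroblast-like cells stood above the next named EYFP positive class beyond counting error but overlapped the unnamed cells at 540 CPM (417 to 687), and each further neighbour in the order overlapped the one above it down to acinar-like cells, which stood apart at 45.6 CPM. NK-like cells, all EYFP negative, had the highest level of any class at 1163 CPM (987 to 1362), with a UMI in 15 of 15 cells. The share of cells with a UMI was 39.5% in EYFP positive and 80.7% in EYFP negative cells, and 15.3% and 18.1% after thinning to 500 UMIs. Erythroid-like cells had the lowest level among EYFP negative classes of more than 1 cell, at 37.6 CPM, with a UMI in 3 of 6 cells at a median of 17885.5 UMIs.

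S100a11, which binds annexin A1, was highest in ductal-like cells in both libraries. Ductal-like cells had 1449.9 CPM (1362 to 1542, 1011 UMIs in 73 of 135 cells) in the EYFP positive and 1153 CPM (934 to 1408) in the EYFP negative library, where there were 2 such cells. The EYFP positive cells formed a deep cluster of 29 cells, all of which had a UMI, at 1530.1 CPM, and a shallow cluster of 106 cells at 866 CPM. Ductal-like cells held 25.4% of all UMIs and 64.4% of S100a11 UMIs in the EYFP positive library, and 1.71% and 8.24% in the EYFP negative library. The next classes were fibroblast-like cells with 805 and 753 CPM and macrophage-like cells with 476 and 1035 CPM, EYFP positive before EYFP negative. In the EYFP negative library the ductal-like interval overlapped that of macrophage-like cells (881 to 1208). Each of the 3 leading named EYFP positive classes was apart from the next named one beyond counting error, while the 128 unnamed cells, at 818 CPM (665 to 995), overlapped fibroblast-like cells. Endothelial-like, T-like and B-like cells lay between 145 and 224 CPM in both libraries, and their intervals overlapped. EYFP positive acinar-like cells had 3 UMIs (11.4 CPM, 2.35 to 33.3).

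An unnamed EYFP positive cluster of 83 cells with both ductal genes (Spp1, Krt8, Clu) and acinar genes (Pnlip, Ctrb1, Prss2) among its leading genes had S100a11 at 965 CPM (763 to 1204). This lay above the acinar-like level of 11.4 CPM and near that of the shallow ductal-like cluster. The share of cells with an S100a11 UMI was 35.6% in EYFP positive and 57.0% in EYFP negative cells. After thinning to 500 UMIs it was 17.4% and 8.86%, so the order of the libraries turned round once depth was made equal. Acinar-like cells gave a share of 2.38% in the EYFP positive library, at a median of 2283 UMIs, and 1.19% after thinning.

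S100a1 and S100a13, whose starts lie 42 bases apart, shared the ductal-like, fibroblast-like, endothelial-like and macrophage-like classes and differed in T-like cells. S100a1 was highest in ductal-like cells, at 208 CPM (175 to 245, 145 UMIs in 41 of 135 cells) in the EYFP positive library, and the 2 EYFP negative ductal-like cells held 24 and 1 UMIs (300.3 CPM, 194 to 443). Fibroblast-like cells had 103 CPM (17 UMIs) in the EYFP positive and 215 CPM (10 UMIs) in the EYFP negative library. Endothelial-like cells had 48.1 and 157 CPM (8 and 7 UMIs) and macrophage-like cells 26.2 and 64.7 CPM (6 and 10 UMIs). The EYFP positive intervals of these classes, 59.9 to 165, 20.8 to 94.9 and 9.62 to 57.1 CPM, overlapped from each class to the next. Unnamed EYFP positive cells held 14 S100a1 UMIs, 7.07% of the gene beside 4.45% of all UMIs. T-like and B-like cells had hardly any, with 4 UMIs in 229 EYFP positive and 3 UMIs in 388 EYFP negative T-like cells, and 0 and 3 UMIs in B-like cells. The 15 NK-like cells held 3 UMIs, no more than 1 in a cell, or 4.92% of the gene beside 2.73% of all EYFP negative UMIs. Ductal-like cells held 73.2% of S100a1 UMIs in the EYFP positive and 41.0% in the EYFP negative library.

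S100a13 stood at 457 CPM (360.4 to 572) in EYFP positive and 337 CPM (188 to 555) in EYFP negative endothelial-like cells. Fibroblast-like cells had 284 and 366 CPM, below the endothelial-like level in the EYFP positive library and above it in the EYFP negative library, with intervals that overlapped in both. Macrophage-like cells had 188 CPM in both, ductal-like cells 163 and 204 CPM, T-like cells 117 and 118 CPM and B-like cells 40.0 and 67.6 CPM. NK-like cells had 264 CPM. Unlike S100a1, S100a13 was thus present in T-like cells, where 60 of 229 EYFP positive and 216 of 388 EYFP negative cells had a UMI. The shares of all cells with a UMI were 21.3% in EYFP positive and 52.8% in EYFP negative cells, and 5.35% and 6.69% after thinning to 500 UMIs. In EYFP positive ductal-like cells 41 had S100a1, 33 had S100a13 and 25 had both, which is 61.0% of the cells with S100a1 and 75.8% of those with S100a13.

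Over all kept cells the 6 members with at least 10 UMIs differed between the libraries in both directions. Here and in what follows a fold is the CPM in EYFP positive over EYFP negative cells, with an exact conditional binomial 95% interval that covers counting error only. S100a1 was 5.74-fold higher (4.29 to 7.78), with 72.1 CPM in EYFP positive and 12.6 CPM in EYFP negative cells. S100a11 was 2.38-fold higher (2.21 to 2.57), with 572 and 239.9 CPM. S100a6 (1.48, 1.36 to 1.61, with 379 and 256 CPM) and S100a13 (1.24, 1.09 to 1.42, with 148 and 119 CPM) stood slightly higher, and S100a10 stood at 0.987 (0.915 to 1.07, with 386 and 391 CPM). The direction of S100a13 turned with every barcode (log2 fold -0.0437) and with cells thinned to 500 UMIs (-0.30). S100a4 was lower, at 0.417 (0.359 to 0.483), with 81.6 CPM in EYFP positive and 196 CPM in EYFP negative cells.

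Many other genes also differed by this much. At least 2-fold higher in EYFP positive cells were 2 of the 6 members, S100a1 and S100a11, beside 26.8% of the 13282 genes tested. With every barcode S100a11 was under 2-fold, at a log2 fold of 0.92. At least 2-fold lower was 1 member, S100a4, beside 8.06% of genes. The median log2 fold was 0.44 for the members and 0.21 for all genes. A sum over a library cannot tell fewer cells of a type from less RNA per cell, and the libraries differed widely in their cells. S100a1 and S100a11 were highest in the ductal-like class, which made 25.4% of EYFP positive and 1.71% of EYFP negative UMIs.

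Within T-like cells none of the 5 members tested was 2-fold apart between the libraries, where 5.36% of 10015 genes were at least 2-fold higher and 8.69% at least 2-fold lower in EYFP positive cells. S100a10 (0.978, 0.863 to 1.11), S100a11 (0.918, 0.757 to 1.11) and S100a13 (0.990, 0.780 to 1.25) had intervals that included 1. S100a4 (0.637, 0.491 to 0.817) and S100a6 (0.638, 0.504 to 0.799) were lower in EYFP positive T-like cells. As a mean over cells of each cell's CPM, and likewise without the highest cell of each library, both were at least 2-fold lower, with log2 folds of -1.60 for S100a4 and -1.53 for S100a6 as a mean over cells. With a stricter barcode filter (500 genes, 10% mitochondrial UMIs) and at resolution 0.5, 1 member was at least 2-fold higher, namely S100a1. The S100a4 and S100a6 values rested on the Izumo1r and Ikzf2 cluster. Without its 63 EYFP negative cells the log2 folds of S100a4 and S100a6 were 4.77 and 2.68, an alternative chosen after the data were seen. It took away 488 of 498 EYFP negative T-like S100a4 UMIs and 556 of 608 S100a6 UMIs. The EYFP positive cells with these genes stayed in, so the removal was one-sided and those folds do not compare like cells. In the values reported S100a1 had too few UMIs for the count, with 4 in EYFP positive and 3 in EYFP negative T-like cells.

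Within B-like cells 1 of 5 members was at least 2-fold lower in EYFP positive cells and 0 at least 2-fold higher, beside 11.9% and 4.6% of 7660 genes. The lower one was S100a4, at 0.0472 (0.00117 to 0.274), from 1 UMI in EYFP positive and 56 UMIs in EYFP negative cells. S100a6 stood at 1.92 (1.47 to 2.51), a value that came from the single cell with 99 UMIs. Without the highest cell of each library its log2 fold was -3.11, and as a mean over cells -0.74. S100a10 (1.14, 0.872 to 1.48), S100a11 (0.913, 0.641 to 1.28) and S100a13 (0.592, 0.298 to 1.09) had intervals that included 1. The median log2 fold of members was -0.13 in B-like and -0.12 in T-like cells, and that of all genes -0.14 and -0.11.

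**Figure D4:**
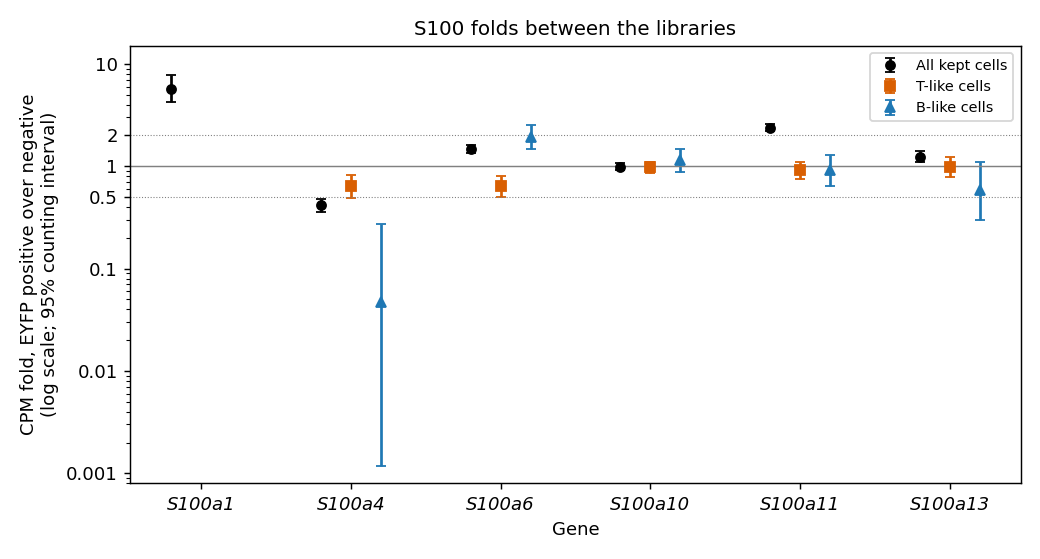
CPM fold, EYFP positive over EYFP negative, of each S100 gene over all kept cells (black), in T-like cells (orange) and in B-like cells (blue), on a log axis with exact conditional binomial 95% intervals and dotted lines at 0.5 and 2. S100a1 (5.74) and S100a11 (2.38) lie above 2 over all kept cells, S100a10 stays near 1 in all 3 sets, and the B-like S100a4 interval is the widest (0.00117 to 0.274).

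How far a member's UMIs were held by single cells differed widely. S100a4 was the most concentrated in the EYFP positive library, where 1 macrophage-like cell of 22307 UMIs held 66 UMIs or 29.5%, and 10 cells held 82.6%. In the EYFP negative library 1 macrophage-like cell of 21832 UMIs held 152 UMIs or 16%, and 10 cells held 70.8%. The number of cells that held 50% of the UMIs was 3 in the EYFP positive and 6 in the EYFP negative library. For comparison, the 10 deepest cells held 14.96% of all UMIs in the EYFP positive and 8.09% in the EYFP negative library.

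S100a6 needed 9 EYFP positive and 10 EYFP negative cells to reach 50% of its UMIs, and its 10 highest cells held 53.4% and 52.9%. S100a1 reached 50% in 13 EYFP positive but 3 EYFP negative cells, since 1 EYFP negative ductal-like cell of 70711 UMIs held 24 of 61 UMIs (39.3%). S100a11 reached it in 16 EYFP positive and 30 EYFP negative cells. Its 198 UMIs in 1 EYFP positive ductal-like cell of 90166 UMIs were 12.6% of the library's S100a11, and the same cell held 21 S100a1, 86 S100a10 and 19 S100a13 UMIs, the most of any EYFP positive cell for each. S100a10 (38 EYFP positive and 78 EYFP negative cells) and S100a13 (36 and 70 cells) were spread over the most cells. Even so their 10 highest cells held 28.1% and 22.5% of UMIs in the EYFP positive and 14.6% and 14.8% in the EYFP negative library, more than the deepest cells held of all UMIs. The highest cells were ranked by each gene's own UMIs, which lifts the share of a sparse gene by counting error alone. This excess therefore does not by itself show concentration.

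**Figure D5:**
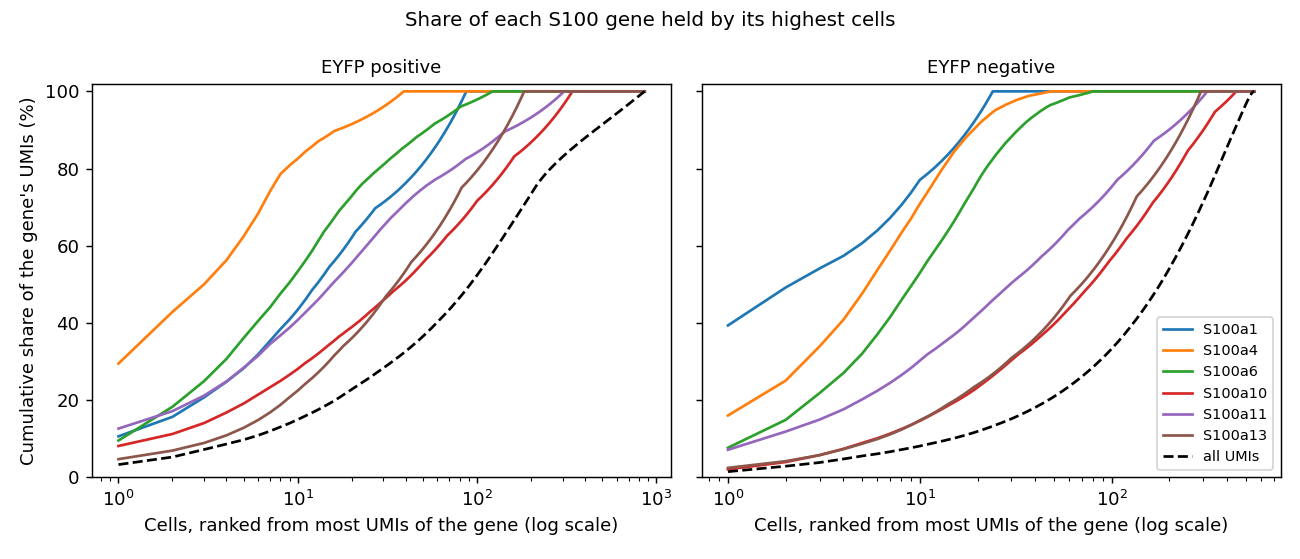
Cumulative share of each gene's UMIs (vertical axis, percent) held by its highest cells (horizontal axis, number of cells on a log scale) in the EYFP positive (left) and EYFP negative (right) library, with a dashed line for all UMIs of a cell. The S100a4 curve starts at 29.5% with 1 EYFP positive cell, the S100a1 curve at 39.3% with 1 EYFP negative cell, and S100a10 and S100a13 lie nearest to the dashed line.

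The neighbours S100a4 and S100a6 were found together in part. In the EYFP positive library 39 cells had S100a4, 122 had S100a6 and 18 had both, which is 46.2% of the S100a4 cells and 14.8% of the S100a6 cells. In the EYFP negative library 48 had S100a4, 80 had S100a6 and 38 had both, which is 79.2% and 47.5%. Among EYFP negative T-like cells 23 of the 29 cells with S100a4 had S100a6. The EYFP positive cells with S100a6 included 60 fibroblast-like cells, of which 1 also had S100a4. S100a10 and S100a11 were found together in 182 EYFP positive and 274 EYFP negative cells, 59.5% and 87.0% of the cells with S100a11. The median depths of the libraries, 1007.5 and 8020 UMIs, differ in the same direction, and their part in these shares was not tested.

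Over the 9 class sums with at least 20 cells the levels of the members differed in pattern, and the correlations are descriptions over sums that share libraries and depth. Pearson's r of log2 levels was 0.879 between S100a10 and S100a11 and 0.068 between S100a4 and S100a6. Among 7016 genes the ones most like S100a6 were Vim (0.951), the gene of the intermediate filament vimentin, Agpat4 (0.946) and Epb41l2 (0.946). Those most like S100a4 were Fam105a (0.935), Dok2 (0.926) and Arrb2 (0.917), and those most like S100a1 were Zfp704 (0.981), Mgst1 (0.973) and Sult1a1 (0.972). S100a10 was followed most closely by Efr3a (0.976), Svbp (0.971) and Snx4 (0.967), S100a11 by Lims1 (0.978), Prdx2 (0.964) and Rnf7 (0.962), and S100a13 by Tmem165 (0.981), Bicd2 (0.977) and Fkbp1a (0.974). Each of these values of r was among the 3 highest of the 7016 genes for its member, over 9 points.

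The known partners of these proteins were counted from a list of 37 genes. Over all kept cells 12 of the 31 partners with enough UMIs were at least 2-fold higher and 1 at least 2-fold lower in EYFP positive cells, beside the 26.8% and 8.06% of all genes given above. Of the S100a10 complex 3 of 4 tested genes were higher, namely Anxa2 (3.03, 2.66 to 3.47), Ahnak (2.68, 2.42 to 2.97) and the plasminogen activator gene Plat (5.90, 3.58 to 10.1). Of the other annexins 2 of 5 were higher, Anxa1 (3.54, 2.83 to 4.45) and Anxa5 (7.01, 6.41 to 7.68). Of the receptors for released S100 proteins 3 of 4 were higher, Tlr4 (2.23, 1.17 to 4.32), Cd36 (7.88, 5.61 to 11.3) and Bsg (3.76, 3.41 to 4.14). As a mean over cells Tlr4 turned direction, with a log2 fold of -0.85.

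The remaining lists held fewer genes past 2-fold. Of the cytoskeletal partners 1 of 7 was higher, Tpm1 (2.93, 2.43 to 3.55), while Myh9, the non-muscle myosin bound by S100a4, stood at 0.807 (0.742 to 0.878). With cells thinned to 500 UMIs Tpm1 turned direction, with a log2 fold of -0.72. Of 6 NADPH oxidase partners of S100a8 and S100a9 none was higher and Rac2 was lower, at 0.342 (0.315 to 0.370). Both tested genes of S100a13-linked release, Fgf1 and Syt1, had 11 UMIs in EYFP positive and 1 UMI in EYFP negative cells (19.5, 2.83 to 838). Of 3 tested S100a1 targets the calcium pump gene Atp2a2 was higher (2.12, 1.75 to 2.57). Ager, a receptor for several S100 proteins, had 0 UMIs in EYFP positive and 3 UMIs in EYFP negative cells.

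Within T-like and B-like cells few partners were 2-fold apart. In T-like cells 1 of 24 partners was at least 2-fold higher in EYFP positive cells, Tpm1 (3.51, 2.65 to 4.64), and 0 were at least 2-fold lower. The shares over all genes were 5.36% and 8.69%. In B-like cells 0 of 26 were higher and 4 lower, beside 4.6% and 11.9% of all genes. Of these 4, Anxa6 stood at 0.451 (0.236 to 0.8003), while the intervals of Anxa11 (0.486, 0.183 to 1.103) and of Tlr4 and Ly96 (1 UMI in EYFP positive and 9 UMIs in EYFP negative cells each) included 1. Anxa2, which S100a10 holds in complex, was far more restricted than S100a10. It stood at 442 CPM in EYFP positive ductal-like cells, 516 CPM in EYFP positive and 705 CPM in EYFP negative macrophage-like cells, and 21.9 CPM in EYFP positive and 27.4 CPM in EYFP negative T-like cells. In T-like cells 9 of 109 EYFP positive cells and 35 of 335 EYFP negative cells with S100a10 also had an Anxa2 UMI. Conversely, 9 of 10 EYFP positive and 35 of 36 EYFP negative T-like cells with Anxa2 had S100a10. Over all T-like cells S100a10 was seen in 109 of 229 EYFP positive and 335 of 388 EYFP negative ones. Of 94 EYFP negative T-like Anxa2 UMIs, 71 lay in the Izumo1r and Ikzf2 cluster, at 145 CPM in 24 of 63 cells.

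Of the other 9 S100 genes among the features, S100a16 alone held 10 or more UMIs. S100a16, which lies 12672 bases beyond S100a13, was 7.999-fold higher (5.83 to 11.2) over all kept cells, with 217 UMIs in EYFP positive and 48 UMIs in EYFP negative cells. It stood at 284 CPM in EYFP positive and 409 CPM in EYFP negative fibroblast-like cells, 259 and 247 CPM in endothelial-like cells, and 166 and 204 CPM in ductal-like cells. No UMI of it was found in macrophage-like cells of either library, 53 EYFP positive and 13 EYFP negative cells. S100a14 had 4 UMIs in EYFP positive and 0 in EYFP negative cells, S100a3 had 3 and 2, and S100b had 3 and 0. S100a7a, S100g and S100z had 1 UMI each over both libraries, and S100a2 and S100a5 had 0.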

How the data were processed

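The authors deposited raw UMI counts, whole numbers for each gene in each barcode, for 1 EYFP positive and 1 EYFP negative library. Per the labels' protocols they were made with a Chromium Single Cell 5′ kit, version 1.1, each on its own sequencing lane. Per the submitters' processing notes Cell Ranger 2.1.0 and a build named GRCh38 were used, while the matrices name software version 3.1.0 per the file headers and use mouse identifiers. Coordinates were therefore looked up in GENCODE M21 by identifier, and the build used for mapping is not taken as known. The counting of overlapping genes is not given in the sources used here.

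Barcodes with 200 or more genes and no more than 20% mitochondrial UMIs were clustered together in scanpy 1.11.5 (Python 3.11.15) without the S100 genes. Genes seen in 3 or more cells were scaled to 10000 per cell and put on a log scale, and 2000 variable genes gave 30 principal components. Leiden clustering (igraph 0.11.9) ran on 15 neighbours at resolution 1.0 with seed 0. A class needed 3 markers at 2-fold over the median cluster with 5 UMIs. A cluster stayed unnamed where another type held more of its 10 leading genes. The same held where another type had as many and the first leading gene marked another type. A cluster also stayed unnamed where its depth was under its sample's median divided by 3 and no leading gene was its own marker. The scoring rule, Leiden settings and seed were chosen after clusters were seen. Scrublet called 2 EYFP positive barcodes (0.233%) doublets and 5 EYFP negative ones (0.904%), which stayed in and were left out as an alternative.

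UMIs were summed per class and library. A gene counted as tested for the background share with 10 or more UMIs over both libraries in the cells compared, a class with 20 or more cells in both. Shares of cells carry exact Clopper-Pearson 95% intervals in the tables, and thinning drew 500 UMIs from each cell, which left out no cell. Correlations used log2(CPM + 10) of genes with 100 or more UMIs. No p-value was made, since each group is 1 library and cells are not replicates. Folds, their intervals and the thinning were tested on simulated data, and the naming of clusters was not. The named genes are the members, other S100 genes with 10 or more UMIs, up to 3 partners per list by UMIs and the 3 genes most like each member. Partners past 2-fold and the T cell and macrophage genes set beside S100a4 were also named, chosen after their values were seen. A planned protein comparison was not run, as no protein table was used here. The members and lists were chosen with earlier results of these data known.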

Additional observations from a re-analysis of the deposited data

Results flagged for a closer look

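S100a6 lay on opposite sides of 1 in the classes that could be compared between libraries. Its fold, EYFP positive over EYFP negative, was 0.638 in T-like cells and 1.92 in B-like cells. The difference between the classes was not tested. The B-like value came from 99 UMIs of 1 EYFP positive cell, and the T-like value from an EYFP negative cluster with no EYFP positive cells.

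Barcodes that the filter removed, 857 EYFP positive and 192 EYFP negative ones, also held S100 UMIs. In the EYFP positive ones S100a11 stood at 76.1 CPM (96 UMIs), S100a10 at 37.3 CPM (47 UMIs) and S100a1 at 18.2 CPM (23 UMIs). The EYFP negative ones held 0, 2 and 0 UMIs of these genes.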

How the results depend on the processing

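No paired analysis was possible because each group is 1 library. Of 151 alternative member folds 118 stayed within the 95% counting interval of the value reported, 27 left it and 6 turned direction. On the log2 scale S100a13 over all kept cells was -0.0437 with every barcode and -0.30 with cells thinned to 500 UMIs. S100a4 and S100a6 in T-like cells were 4.77 and 2.68 without the Izumo1r and Ikzf2 cluster, which took cells from the EYFP negative library only. S100a6 in B-like cells was -0.74 as a mean over cells and -3.11 without the highest cell of each library. Of 767 partner folds 8 turned direction. As a mean over cells these were Anxa7 (-0.018) and Tlr4 (-0.85) over all kept cells and Bsg in T-like cells (-0.14). Thinned to 500 UMIs they were Anxa7 (-0.30) and Tpm1 (-0.72) over all kept cells. With classes set cell by cell from marker UMIs they were Atp2a2 (-0.046) and Bsg (-0.13) in T-like cells, and without the highest cell Bsg there was -0.11. The cause was not tested.

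The number of members at least 2-fold higher over all kept cells was 1 with every barcode, in place of 2. In T-like cells it was 0. It was 1, namely S100a1, with a stricter barcode filter (500 genes, 10% mitochondrial UMIs), with seed 1 and at resolution 0.5. Without the Izumo1r and Ikzf2 cluster, a removal from the EYFP negative library only, it was 2. In B-like cells it was 0, and 1 under that filter and with classes set cell by cell. Members at least 2-fold lower in T-like cells were 0, and 2 as a mean over cells and without the highest cell. In B-like cells they were 1, and 2 under that filter and without the highest cell. Of 54 alternative class levels 52 stayed within the interval of the value reported, among them S100a6 in EYFP positive fibroblast-like cells at 3409 to 3622 CPM. The 2 that left it were S100a4 levels with classes set cell by cell, 1108 CPM in EYFP negative macrophage-like and 36.1 CPM in EYFP positive fibroblast-like cells. Seed 1 and the run without the Izumo1r and Ikzf2 cluster were chosen after seeing the data. EYFP negative ductal-like, acinar-like and fibroblast-like cells numbered 5 or fewer, which limits their values, as does the low depth of EYFP positive cells.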
